A study of Oryza sativa with 4 samples.

Results

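The genes described here are 10 tau-class glutathione S-transferase genes of the cluster on rice chromosome 10, from LOC_Os10g38340 to LOC_Os10g38740. They were taken by identifier from a fixed set of 10, out of 20567 identifiers in the deposited tables. The set was chosen with earlier results of these data known. That they belong to this class and cluster comes with the set, and no file used here annotates the identifiers. Bulk RNA was sequenced from protoplasts, which are plant cells whose walls were digested away, in 2 libraries of 93-11, an indica cultivar, and 2 libraries of Nipponbare, a japonica cultivar. The protoplasts of each cultivar came from tips of 5 mm cut from crown roots of seedlings kept 3 days in nutrient solution, and the labels give 800 crown roots. The labels name no transgene and no treatment, and the wall digestion was shared by both cultivars. Whether the replicate libraries stem from different protoplast batches is not stated, so the spread behind each p-value may be purely technical. Cultivar and preparation cannot be told apart.

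Glutathione S-transferases attach the tripeptide glutathione to electrophilic molecules, which makes them more soluble and marks them for transport into the vacuole. The tau class is specific to plants, is known for detoxifying herbicides and other foreign compounds, and often responds to oxidative stress, wounding and hormones. Its genes commonly lie in tandem arrays of close copies, of which the chromosome 10 cluster of rice is an example. Close copies can share reads, and the sources used here do not say how such reads were counted, so single members are uncertain to that extent.

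The values are RPM, that is, reads scaled to a common library total, and are not divided by gene length, so they compare cultivars for a gene and not genes with each other. The library totals implied by the values ran from 21504426 to 21504715 reads, and 1 read was worth 0.0465 RPM. The deposited values of 1 RPM or more had lost their decimal point. It was restored from the rule that every value is a whole number of reads. A pair of read numbers that both end in 0 would be restored 10 times too low in that cultivar.

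Of the 10 members, 4 were listed for both cultivars, 1 for 93-11 only and 5 for Nipponbare only. Of all 20567 identifiers, 41.7% were in both tables, 23.9% in that of 93-11 only and 34.4% in that of Nipponbare only. A gene missing from a table is not a gene with 0 reads, since both tables also list genes at 0, so members in 1 table are described without a comparison.

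The 4 members in both tables had lower mean levels in 93-11 than in Nipponbare. With no filter on low values, limma called all 4 lower in 93-11 (adjusted p of 0.05 or less), where 34.4% of all 8576 shared genes were called lower and 96.0% were called in either direction. The summed level of the 4 was 21.8 and 26.3 RPM in the 93-11 libraries, against 4012 and 3965 RPM in the Nipponbare libraries. The mean sum was 24.04 ± 3.22 RPM in 93-11 and 3989 ± 33.2 RPM in Nipponbare (SD, n = 2 each), lower in 93-11 by a factor of 166. These 4 genes thus held 0.00218% and 0.00263% of all reads in 93-11 and 0.401% and 0.397% in Nipponbare. In bulk RNA, fewer cells that express a gene and less RNA per cell cannot be told apart.

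**Figure D1:**
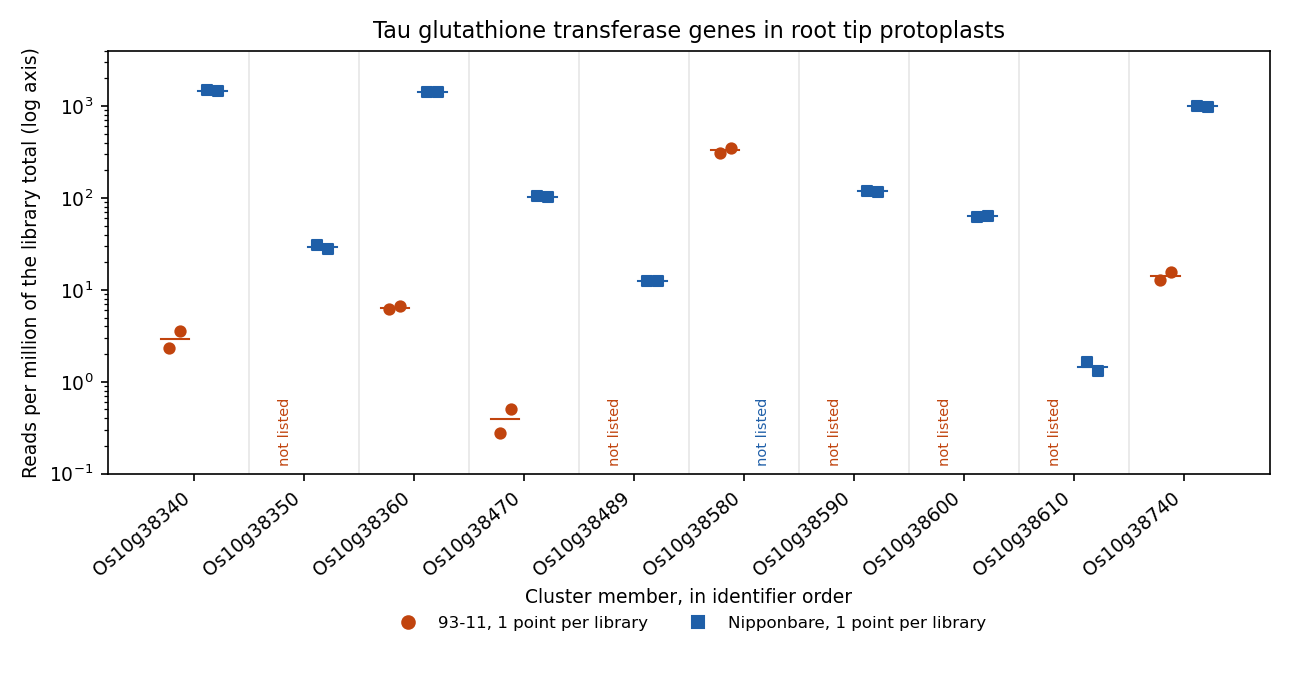
Level of each member in RPM on a log axis, with 1 point per library, 93-11 (circles) left of Nipponbare (squares) and a short line at the mean of 2 libraries. The 4 members with points for both cultivars have a lower mean line for 93-11, and LOC_Os10g38580 is the member listed for 93-11 only.

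LOC_Os10g38340, the first member in identifier order, had the largest difference. It had 2.33 and 3.53 RPM in 93-11, against 1491 and 1462 RPM in Nipponbare. The higher 93-11 library was still lower than the lower Nipponbare library by a factor of 414. The mean of 2.93 ± 0.855 RPM in 93-11 was lower by a factor of 504 than the 1476 ± 20.7 RPM of Nipponbare (SD, n = 2 each). An exact binomial interval at 95% for that factor, which covers counting error only, ran from 423 to 605. The 93-11 values rest on 50 and 76 reads, a difference between libraries of 41.3% of their mean, while the Nipponbare libraries differed by 1.98%.

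LOC_Os10g38360, a further tau-class transferase gene, was also lower in 93-11. It was at 6.23 and 6.60 RPM in 93-11 and at 1415 and 1421 RPM in Nipponbare. All libraries of a cultivar lay close together, with a mean of 6.42 ± 0.263 RPM in 93-11 and 1418 ± 4.01 RPM in Nipponbare (SD, n = 2 each). The level was lower in 93-11 by a factor of 221, with a counting interval of 196 to 250.

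LOC_Os10g38740, the last member in identifier order, was at 12.9 and 15.7 RPM in 93-11 and at 1002 and 980.1 RPM in Nipponbare. It had the smallest factor of the 4, 69.3, with a counting interval of 64.0 to 75.2. It also held 59.4% and 59.5% of the summed reads of the 4 genes in 93-11, whereas in Nipponbare LOC_Os10g38340 held the largest part, 37.2% and 36.9%.

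LOC_Os10g38470 was barely detected in 93-11, with 0.279 and 0.512 RPM, or 6 and 11 reads, against 104 and 103 RPM in Nipponbare. Its mean of 0.395 ± 0.164 RPM in 93-11 was lower by a factor of 262 than the 104 ± 0.658 RPM of Nipponbare (SD, n = 2 each). With 17 reads in 93-11 the counting interval of that factor is wide, from 163 to 450. Its 93-11 values lie below 1 RPM and kept their decimal point, so they cannot be 10 times too low.

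The cultivars were compared with limma on log2(RPM + 1) over all 7269 genes in both tables whose mean across libraries reached 1 RPM, with Benjamini-Hochberg adjustment. The added 1 RPM shrinks the differences of genes with few reads. LOC_Os10g38340 differed by -8.57 (SE 0.15, limma adjusted p = 1.26e-06) as 93-11 minus Nipponbare. LOC_Os10g38360 differed by -7.58 (SE 0.04, limma adjusted p = 7.16e-07) and LOC_Os10g38740 by -6.02 (SE 0.09, limma adjusted p = 1.01e-06). These 3 members were above 1 RPM in every library. LOC_Os10g38470 passed the filter through its Nipponbare level alone, so its test is given without the filter, where it differed by -6.23 (SE 0.10, limma adjusted p = 1.08e-05).

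A call by itself was common in these data. Of the 7269 tested genes 37.9% were called lower in 93-11, 59.0% were called higher and 96.9% were called in either direction. With no filter, ranks were counted from the most negative difference of all 8576 shared genes. LOC_Os10g38340 was number 6, LOC_Os10g38360 number 15, LOC_Os10g38470 number 63 and LOC_Os10g38740 number 73. A difference of -6 or lower was found for 75 of the 7269 genes that passed the filter, or 1.03%. The median difference over the 4 members was -6.91, and that over all shared genes was 1.12 with no filter.

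**Figure D2:**
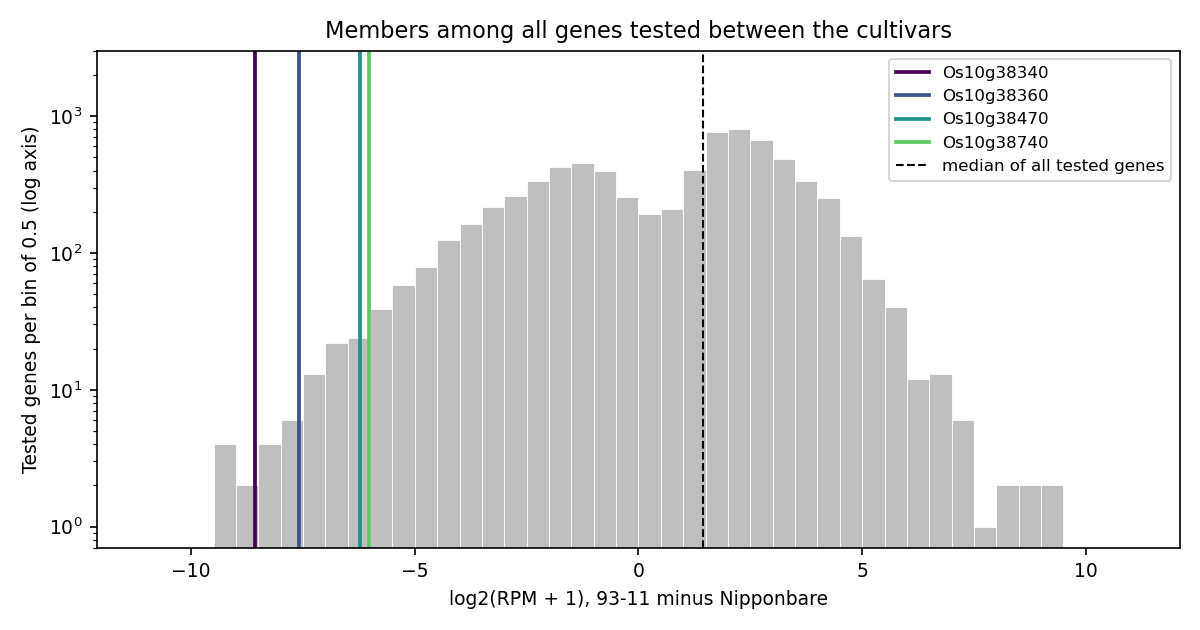
Histogram of the difference in log2(RPM + 1), 93-11 minus Nipponbare, of the 7269 tested genes in bins of 0.5 with a log axis for gene numbers. Coloured lines mark the 4 members, from -8.57 to -6.02 in the left tail, and the dashed line marks the median of all tested genes at 1.44. LOC_Os10g38470 is among the tested genes through its Nipponbare level alone.

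The direction held where the decimal points were placed otherwise. With the 93-11 read numbers 10 times higher, the difference was -5.64 for LOC_Os10g38340, -4.44 for LOC_Os10g38360 and -2.79 for LOC_Os10g38740, and each was still called lower in 93-11. The differences also kept their sign and call under every scaling tried. Relative to the median of all genes, which scaling moved between 0.59 and 1.78, the difference of LOC_Os10g38340 lay between -10.06 and -9.18 and that of LOC_Os10g38740 between -7.57 and -6.59.

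**Figure D3:**
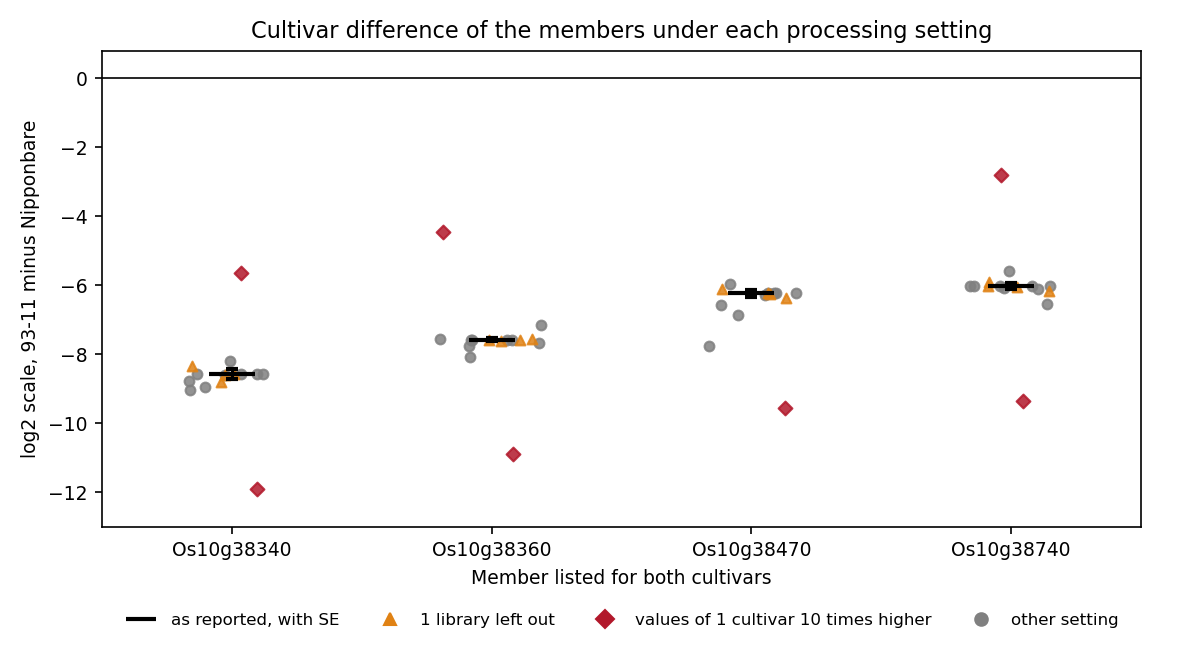
Difference of the 4 members, 93-11 minus Nipponbare on the log2 scale, as reported (black bar with SE) and under each other setting (points). All points lie below 0, and the highest, at -2.79, is LOC_Os10g38740 with its 93-11 values 10 times higher. LOC_Os10g38470 passed each filter through its Nipponbare level alone, so its points under a filter are a description only.

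LOC_Os10g38580 was the member listed for 93-11 only. It had 312 and 348 RPM, a mean of 330 ± 25.3 RPM (SD, n = 2), which rests on 6709 and 7477 reads. It held 93.5% and 93.0% of the reads of the 5 members listed for 93-11. Its Nipponbare level was not analysed here, so a common direction of the members is shown for the 4 that were compared and for no other.

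The 5 members listed for Nipponbare only covered a wide range. LOC_Os10g38590 was at 120 and 117 RPM, a mean of 119 ± 2.10 RPM (SD, n = 2). LOC_Os10g38600 was at 62.9 and 64.0 RPM, and LOC_Os10g38350 at 31.0 and 27.9 RPM. LOC_Os10g38489 was at 12.4 RPM in both libraries, and LOC_Os10g38610 was at 1.63 and 1.30 RPM, or 35 and 28 reads. These 5 genes added little to the reads of the listed members in Nipponbare. All 9 listed members together came to 4241 and 4188 RPM there, and the 4 shared members alone to 4012 and 3965 RPM. The identifiers LOC_Os10g38590, LOC_Os10g38600 and LOC_Os10g38610, listed for Nipponbare only, follow directly on LOC_Os10g38580 among the members.

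The libraries of a cultivar differed by 5.80% to 58.8% of their mean for the 5 members in 93-11 and by 0.376% to 22.2% for the 9 members in Nipponbare. In each cultivar the widest gap was that of the member with the fewest reads. All 5 members of 93-11 were higher in the library numbered 2, as were 53.6% of all tested genes. In Nipponbare 2 of 9 members were higher in the library numbered 2, against 41.4% of tested genes.

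Between the first and the last member the tables list 12 further identifiers, which no file used here annotates, and 4 of them are in both tables. These split by gene. LOC_Os10g38730 had 0 and 0.0930 RPM in 93-11, against 12.9 and 14.0 RPM in Nipponbare. It passed the filter through its Nipponbare level alone. Its test is therefore given without the filter, where it was called lower in 93-11 (log2 difference -3.78, SE 0.08, limma adjusted p = 1.54e-05). With 2 reads in 93-11 its factor of 289 has a counting interval of 79.5 to 2388. LOC_Os10g38720 was also lower in 93-11, at 17.7 and 20.1 RPM against 93.0 and 94.2 RPM in Nipponbare, by a factor of 4.96.

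The other shared non-members were called higher in 93-11. LOC_Os10g38670 was at 217 and 241 RPM in 93-11, against 27.1 and 32.5 RPM in Nipponbare, higher in 93-11 by a factor of 7.69 (log2 difference 2.91, SE 0.10, limma adjusted p = 6.38e-06). LOC_Os10g38660 was at 3.35 and 3.86 RPM in 93-11, against 1.44 RPM in both Nipponbare libraries, and was called higher in 93-11 with a log2 difference of 0.91 (limma adjusted p = 0.000267). That difference lay below the median difference of all tested genes, 1.44. It became -0.16 under quantile normalization, with no call (limma adjusted p = 0.117). So the low levels of the 4 members in 93-11 were not shared by every listed gene of the same identifier range.

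Of the other eight identifiers in this range, 3 were listed for 93-11 only and 5 for Nipponbare only. LOC_Os10g38495, at 2488 and 2515 RPM, and LOC_Os10g38501, at 2336 and 2242 RPM, were listed for Nipponbare only and are named after their values were seen. Each of them held more reads in Nipponbare than any member.

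**Figure D4:**
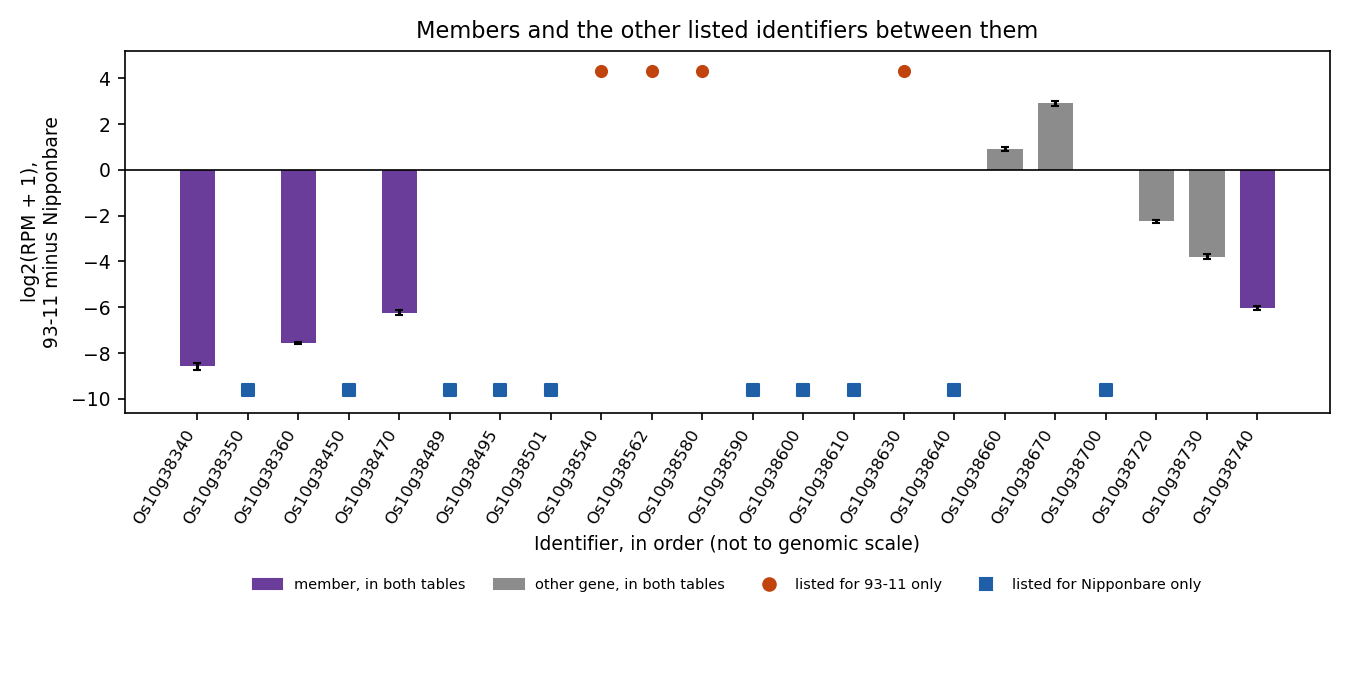
The 10 members and the 12 other listed identifiers between them in identifier order, not to genomic scale. Bars with SE give the difference in log2(RPM + 1), 93-11 minus Nipponbare, for the 8 genes in both tables (members purple, other genes grey), with LOC_Os10g38670 at 2.91 and LOC_Os10g38340 at -8.57 as the extremes; circles and squares mark genes listed for 1 cultivar, and their height carries no value.

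Other genes of glutathione chemistry were mixed. Their identifiers were written from general knowledge of the rice annotation and no file used here pairs them with names, so only the roles of the lists are given. Of 8 genes taken as glutathione peroxidases, dehydroascorbate reductases and glyoxalase I, which use glutathione against peroxides, oxidised ascorbate and methylglyoxal, 3 were tested and all 3 were called lower in 93-11, against 37.9% of all tested genes. LOC_Os02g44500 was at 85.8 and 95.7 RPM in 93-11, against 2026 and 2011 RPM in Nipponbare, with a log2 difference of -4.46. LOC_Os03g24380 differed by -2.89 and LOC_Os04g46960 by -2.48.

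Of 8 genes taken as enzymes that make glutathione or return it to its reduced form, 3 were tested, of which 2 were called higher in 93-11 and 1 lower, against 59.0% and 37.9% of all tested genes. LOC_Os11g42350 differed by 2.03 and LOC_Os03g06740 by 1.92. Both passed the filter through their 93-11 level alone, with Nipponbare means of 0.605 and 0.953 RPM, so their direction was set by the filter. LOC_Os10g28000 went the other way, at 4.28 and 5.63 RPM in 93-11 and 22.7 and 25.8 RPM in Nipponbare, a difference of -2.09.

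Of 31 genes taken as glutathione transferases on other chromosomes, 16 were tested, and 8 were called lower in 93-11, 7 higher and 1 not called, where 37.9% of all tested genes were called lower and 59.0% higher. Among them LOC_Os01g72130 was at 16.3 and 15.5 RPM in 93-11 and 336 and 343 RPM in Nipponbare, a log2 difference of -4.34, and LOC_Os01g49710 differed by -4.23. LOC_Os03g04250 went the other way, at 36.8 and 40.9 RPM in 93-11 against 1.67 RPM in both Nipponbare libraries, a difference of 3.90. Some called genes of this list averaged below 1 RPM in 1 cultivar, such as LOC_Os03g04260, called higher, and LOC_Os01g70770, called lower. They passed the filter through the other cultivar alone, so their direction was set by the filter and the counts are a description only. The median difference of this list was -0.57, that of all tested genes 1.44, and no gene named from the 3 lists differed by as much as any of the 4 cluster members. A further list of 18 genes taken as transferases of the LOC_Os10g38 series had 4 tested genes, which are the 4 non-members described above. The same list holds LOC_Os10g38495 and LOC_Os10g38501, listed for Nipponbare only, and LOC_Os10g38189, listed for 93-11 only. These were not tested.

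By distance over the 4 values of log2(RPM + 1), the shared non-members closest to LOC_Os10g38340 were LOC_Os01g44120 (distance 1.29), LOC_Os12g38270 (1.66) and LOC_Os02g50710 (1.73). Those closest to LOC_Os10g38360 were LOC_Os09g30300 (0.99), LOC_Os01g44120 (1.35) and LOC_Os02g33820 (1.45). LOC_Os01g44120, which is on both lists, averaged 3.93 ± 0.164 RPM in 93-11 and 844 ± 5.00 RPM in Nipponbare (SD, n = 2 each).

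Marker lists moved with the cultivar as well, and their part in the difference of the members was not tested. The 9 genes taken as markers of root hair, endodermis and exodermis, stele and dividing meristem cells were all called higher in 93-11 (limma, adjusted p of 0.05 or less), as were 59.0% of all tested genes. Several of these genes, such as LOC_Os03g01700 and LOC_Os01g67240, passed the filter through their 93-11 level alone. For those the direction was set by the filter, so the count of 9 is a description only. The 4 meristem markers summed to 243 and 252 RPM in 93-11 and to 3.95 and 4.14 RPM in Nipponbare, and the 2 root hair markers to 61.0 and 60.9 RPM in 93-11 and 0.791 RPM in each Nipponbare library. The endodermis and exodermis marker LOC_Os03g01700 had 0 reads in both Nipponbare libraries. Of 5 genes taken as markers of defence and wounding, 4 were called lower in 93-11, as were 37.9% of all tested genes, and 1 was called higher. They summed to 391 and 414 RPM in 93-11 against 4785 and 4737 RPM in Nipponbare. Of 6 genes taken as markers of green shoot tissue, 2 were in both tables and both had 0 reads in Nipponbare. LOC_Os09g17740 had 5.21 and 5.53 RPM in 93-11, and LOC_Os12g19381 had 0.791 and 1.16 RPM there. LOC_Os12g19470, listed for Nipponbare only, had 0.698 and 0.837 RPM.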

How the data were processed

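The deposited data are a table for each cultivar with RPM in its title and a column for each of the 2 libraries. HISAT2 2.0.4 and HTSeq 0.11.2 are named, per the submitters' processing notes. Genome build, gene annotation and the reason for listing a gene are not given in the sources consulted. Library totals came from the smallest value of each library. Each value was then read as a whole number of reads (tolerance 1e-06 of a read plus 1e-12 of the value), taking the candidate pair closest between the 2 libraries and, of equally close pairs, the lowest. A gene whose closest pair differed by more than 0.4 in log10 was left out, which concerned 3 genes in 93-11, 1 in Nipponbare and no member. The listed genes held 42.3% and 43.5% of the totals in 93-11 and 55.6% and 55.7% in Nipponbare, and replicate values correlated at 0.996 and 0.998 across the 8576 shared genes on the log2(RPM + 1) scale, which is partly built in by the restoration.

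Tests used limma 3.58.1 (R 4.3.3) with the variance trended on mean level and an adjusted p of 0.05 as threshold. Tables were simulated with the same loss of decimal points and with 50 genes changed at each of the folds 1.5, 2, 4 and 8. There 87 of 277 calls were false, which is more than that threshold implies. Of these false calls, 71 were of genes whose values were restored wrongly, so a call of a single gene also rests on its restoration. All other genes of the 7286 tested in the simulation had equal expected levels in both cultivars, whereas 96.9% of the real tested genes were called. The share of false calls there therefore need not carry over to the real calls. No count model was fitted to the restored read numbers. The RefSeq gene table of ASM3414082v1 matched 0 of the 10 member identifiers, so no coordinates or sequences are given. All members, the 4 tested genes between them, the 3 largest differences of each list and the 3 nearest profiles of 2 members were named by rule. The members and lists were chosen with earlier results of these data known. Alternatives covered pseudocount, filter, scaling, variance model, replicate block, restoration and leaving out each library.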

Additional observations from a re-analysis of the deposited data

How the results depend on the processing

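All 4 members in both tables were lower in 93-11 under each of the 13 alternatives to pseudocount, filter, scaling, variance model, block and library. The sign also held with the next candidate read numbers. For LOC_Os10g38470 the direction is a description only wherever a filter was used. With all libraries, LOC_Os10g38360 and LOC_Os10g38740 stayed called lower under each alternative. LOC_Os10g38340 did too, but its call with a filter of at least 5 RPM on average is not counted. With a mean of 2.93 RPM in 93-11, it passed that filter through its Nipponbare level alone. Across the alternatives of pseudocount, scaling, variance model and block, 2534 to 3037 of all 7269 tested genes were called lower. LOC_Os10g38470 passed each filter through its Nipponbare level alone, so only its direction and call with no filter are counted. Leaving out 1 library moved the difference of LOC_Os10g38340 between -8.80 and -8.35. The log2 ratio of the summed level of the 4 shared members, 93-11 over Nipponbare, was -7.37. It was -7.92 with median-ratio scaling and -6.92 with scaling to the sum of the shared genes. LOC_Os10g38660, a non-member, reversed to -0.16 under quantile normalization; the cause was not tested. With the replicate number as a block, LOC_Os10g38340, LOC_Os10g38360 and LOC_Os10g38740 stayed called. In that setting 7070 of all tested genes were called, against 7047 without the block. The numbers do not pair the libraries as far as the labels say, and deviations of same-numbered libraries correlated at 0.0194 across 7269 genes. Reads limit the 93-11 values, above all the 17 reads of LOC_Os10g38470.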
